A study of Danio rerio with 697 samples.

Results

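The mitochondrial chromosome of zebrafish carries 37 genes, and all 37 were followed here among the 32520 genes counted in single larval beta cells. The choice was made with earlier results of these data known. It used the chromosome that the deposited table names for each gene, so no expression value decided which genes belong. They comprise 13 protein-coding genes, which encode subunits of respiratory complexes I, III, IV and V, 2 rRNA genes of the mitochondrial ribosome and 22 tRNA genes. The chromosome is transcribed from both strands into long precursors that are cut largely at the tRNAs, so its genes share precursors and the level of each mature RNA depends on cutting, tailing and decay. Beta cells use mitochondrial respiration to couple glucose to the release of insulin, and the complexes of the respiratory chain combine subunits from this chromosome with a larger number from the nucleus.

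The wells came from 3 treatments of 20 larvae each, all exposed to capsaicin (csn). The 693 wells with a condition divide into control (24.96%, plate 1), csn 24 h (22.2%, plate 2) and csn 48 h (366 wells, plate 3). Control wells held cells of *Tg(ins:Kaede)* larvae, which lack the csn-gated channel and received csn for 48 h, from 3 to 5 dpf (days post fertilization). The csn 24 h and csn 48 h wells held cells of larvae that carried *Tg(ins:TRPV)*, a rat channel driven by the insulin promoter, together with *Tg(ins:Kaede)*. By the labels csn was given from 4 to 5 dpf in the 24 h group and from 3 to 5 dpf in the 48 h group, whereas the text of the study gives a start at 3 dpf for both. The 48 h wells carry the set numbers 1 (20.6% of the 693 wells) and 2 (32.2%), whose meaning the labels do not give, and both sets are reported side by side. Dissected pancreatic regions of larvae were pooled and dissociated, live Kaede-positive cells were sorted 1 per well, and full-length cDNA was primed with oligo-dT and amplified. No label names the larva behind a cell. Each set is therefore 1 sample (n = 1), no test between sets was possible, and treatment and plate cannot be told apart.

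The share of a well on a gene is its percentage of all counts on genes, spike-ins left out. The shallowest well had 1486 counts on genes, and the set medians were 650959, 500240, 384200 and 421224 for control, csn 24 h and the 48 h sets 1 and 2. No 2 wells held the same counts. The labelled cell type was checked by *ins*, which encodes insulin: it was under 1% of the counts outside the chromosome in 9 control wells (5.20%), 16 csn 24 h wells (10.4%), 49 wells of set 1 (34.3%) and 29 wells of set 2 (13.0%). Wells with at least 3 markers of iridophores (reflective pigment cells) at 10 or more reads numbered 0, 0, 17 and 6. Wells that had *ins* under 1% and more counts on the glucagon and somatostatin genes numbered 3, 10, 7 and 8. No limit on mitochondrial counts was applied unless one is named. Intervals are at the 95% level and cover counting error or, for a median, the spread over wells alone; PCR copies of 1 molecule are counted as separate reads.

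In each set the protein-coding genes had medians between 10.7% and 13.2% of a well, the tRNA genes had almost nothing, and the rRNA differed most between sets. The protein-coding share of a control well ranged from 1.198% to 76.9% with a median of 10.7% (interval 9.905 to 11.01). Wells of csn 24 h ranged from 2.91% to 97.7% with a median of 12.9% (12.0 to 14.3). Set 1 ranged from 0.394% to 88.2% with a median of 12.2% (11.2 to 14.1), and set 2 from 1.58% to 93.04% with a median of 13.2% (12.0 to 14.3). The ranges overlapped almost wholly, and 66.9%, 62.2% and 69.96% of the csn wells lay above the control median. On the log2 scale the medians of csn 24 h, set 1 and set 2 stood 0.28, 0.19 and 0.31 above control.

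The gene for the 16S rRNA, *mt-rnr2*, the RNA of the large mitochondrial ribosomal subunit, had set medians further apart than the protein-coding and tRNA classes. Its share of a control well ranged from 0.0234% to 11.5% with a median of 1.80% (1.67 to 1.99). The median was 2.72% (2.38 to 3.22) for csn 24 h, where wells ranged from 0.0676% to 17.9%. Set 1 ranged from 0.563% to 85.1% with a median of 4.24% (3.69 to 4.82), and set 2 from 0.474% to 76.7% with a median of 4.63% (4.16 to 5.08). Of the csn wells, 73.4%, 90.2% and 96.4% lay above the control median, although the ranges of all sets overlapped. The log2 ratios of the medians to control were 0.59 for csn 24 h, 1.23 for set 1 and 1.36 for set 2. Counted per 100 protein-coding counts, *mt-rnr2* had medians of 18.1, 20.2, 33.1 and 32.7, so its median was higher in both 48 h sets also relative to the mRNAs of the same chromosome. In wells with *ins* of at least 1% the medians were 18.2, 20.9, 35.4 and 34.02. Whether nuclear copies of mitochondrial sequence took part of these reads was not tested.

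**Figure D1:**
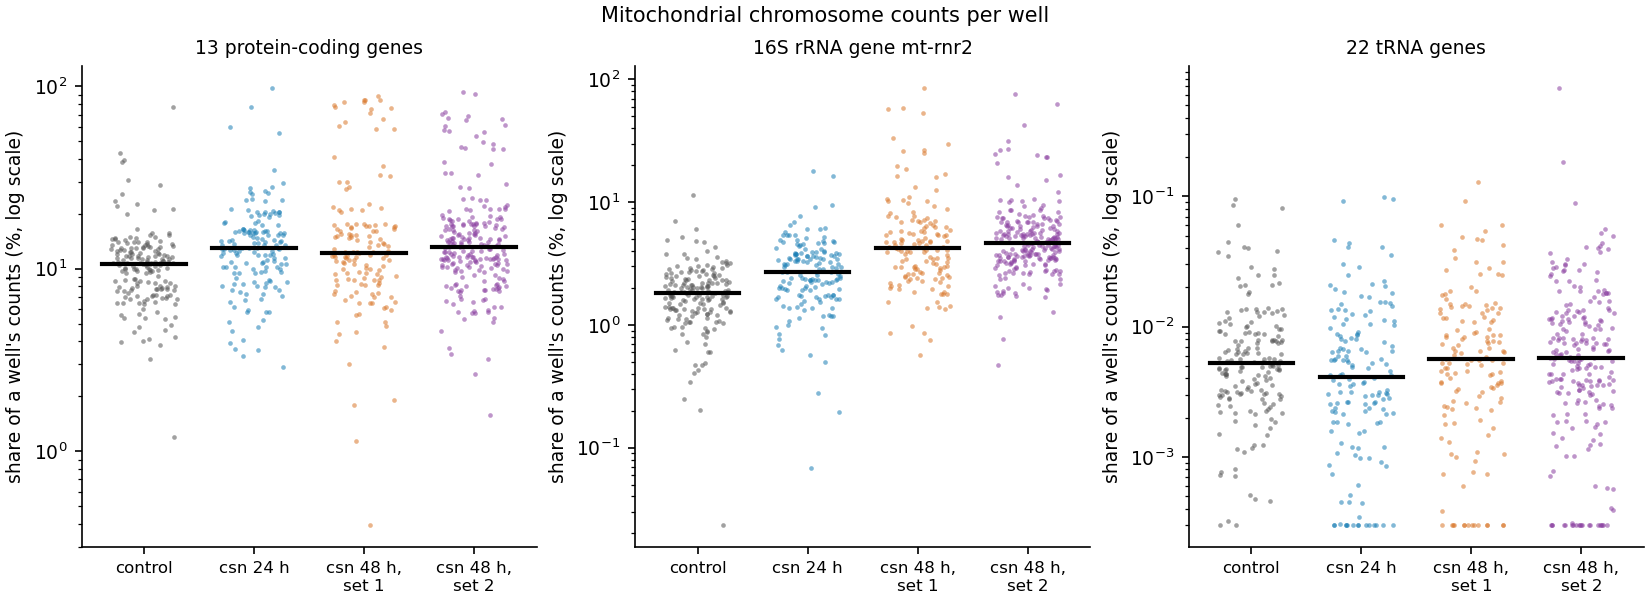
Share of each well's counts on genes (%, log axis) for the 13 protein-coding genes, *mt-rnr2* and the 22 tRNA genes; each point is 1 well, the black line is the median of the set, and wells without a tRNA count are drawn at 0.0003%. Protein-coding medians lie between 10.7% and 13.2%, whereas the *mt-rnr2* medians step from 1.80% to 4.63%.

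The position on the plate moved with the *mt-rnr2* share. Medians of plate rows went from 1.34% in row A to 2.33% in row G of the control plate and from 1.72% in row A to 3.80% in row G of the csn 24 h plate. Row medians on plate 3 lay between 3.74% and 4.86% in set 1 and between 3.69% and 6.29% in set 2. Each row of plate 3 thus exceeded each control row, but the top row of csn 24 h reached the lowest rows of plate 3. The protein-coding share showed no such order, with row medians between 9.83% and 10.98% on the control plate. Per 100 protein-coding counts, row medians of *mt-rnr2* went from 12.4 in row A to 23.7 in row G of the control plate. On the csn 24 h plate they went from 13.1 in row A to 36.9 in row G. They lay between 27.98 and 39.6 in set 1 and between 23.9 and 42.1 in set 2. Row G of csn 24 h thus lay above the medians of both 48 h sets. Spearman correlations of the *mt-rnr2* share with the counts on genes were weak (0.15, 0.09, 0.12 and 0.01 over all wells of each set). The part of plate position in the difference between sets was not tested.

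**Figure D2:**
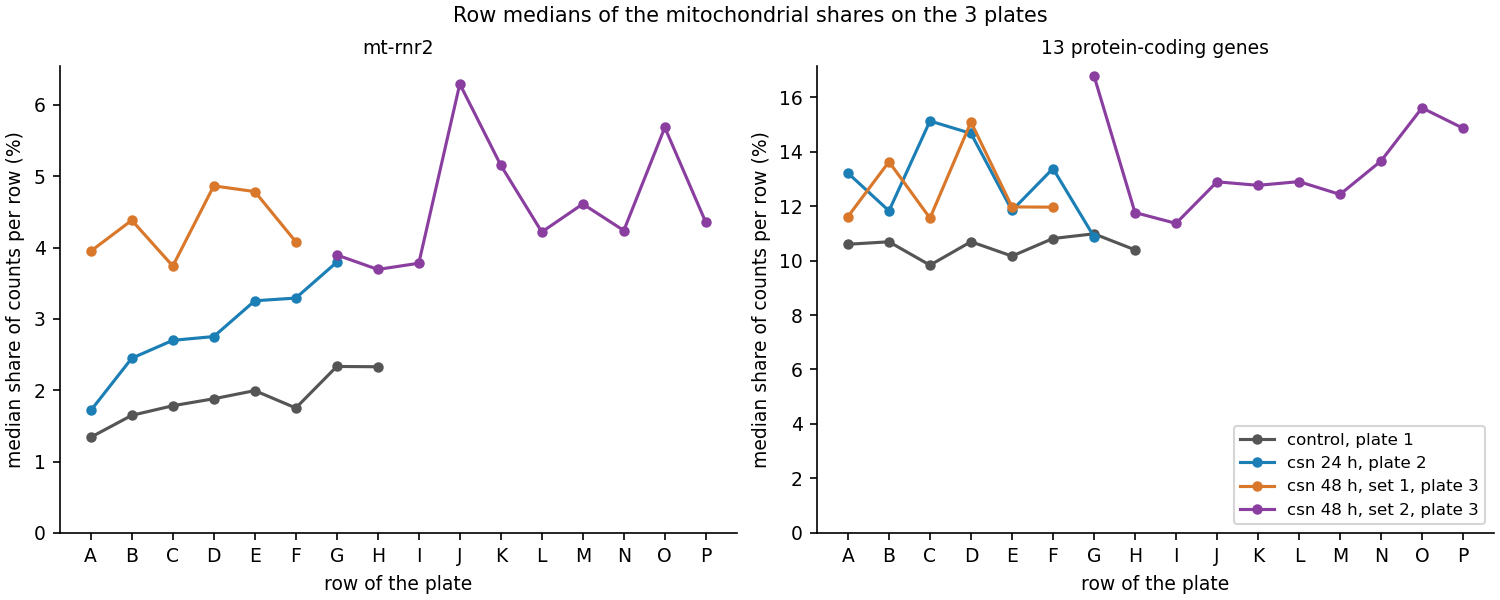
Median share of counts on genes (%) per plate row for *mt-rnr2* (left) and the 13 protein-coding genes (right), for rows with at least 5 wells; each line is 1 set on its plate. The *mt-rnr2* medians lie between 1.34% and 2.33% on plate 1 and rise from row to row between 1.72% and 3.80% on plate 2.

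A share can also be higher because other RNA is lower, and the spike-in RNAs added to each well give a second scale. It was used in wells with at least 100 spike-in counts, which left out 74, 56, 39 and 76 wells. Counts outside the chromosome per spike-in count had a median of 315 in control (interval 252 to 410), and of 181.8, 184.3 and 189.8 in csn 24 h, set 1 and set 2. Protein-coding counts of the chromosome per spike-in count had medians of 34.6 (quartiles 22.1 and 63.6), 28.8 (17.7 and 48.5), 29.3 (12.4 and 70.3) and 40.9 (18.2 and 88.2), so the quartile ranges of the sets overlapped. On this scale the order of the protein-coding levels turned for csn 24 h and set 1, which were lower than control by 0.26 and 0.24 on the log2 scale. The rRNA counts per spike-in count were 6.40 in control (interval 4.53 to 8.37), 5.996 in csn 24 h (4.93 to 7.63), 10.7 in set 1 (8.49 to 15.1) and 13.7 in set 2 (10.8 to 15.999). The rRNA of the 48 h sets was thus higher than control on both scales, and that of csn 24 h as a share but not per spike-in count.

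Within the chromosome, 5 genes held nearly all counts. *mt-rnr2*, *mt-cyb* (cytochrome b of complex III) and *mt-co1*, *mt-co2* and *mt-co3* (the catalytic core of complex IV, cytochrome c oxidase) took a median of 95.03% of a control well's mitochondrial counts, and 96.9%, 94.5% and 96.6% in csn 24 h, set 1 and set 2. *mt-cyb* led the protein-coding genes in 78.03% of control wells, 68.8% of csn 24 h wells, 74.1% of the wells of set 1 and 74.4% of those of set 2, and *mt-co2* led in most others. Its gene spans positions 15308 to 16448 of the chromosome (GRCz11, plus strand), and *mt-rnr2* spans 2043 to 3725 on the same strand.

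The share of *mt-cyb* ranged from 0.0334% to 26.8% in control with a median of 4.59%. It had medians of 5.42%, 4.69% and 5.70% in csn 24 h, set 1 and set 2, and its highest wells reached 45.2%, 83.1% and 59.7%. For *mt-co2* the control wells ranged from 0.262% to 22.4% with a median of 2.78%, and the csn medians were 3.66%, 3.52% and 4.27%. *mt-co3* had medians of 0.785%, 1.30%, 1.16% and 1.04%. *mt-co1* had a control median of 1.33% (0.00381% to 9.48%) and lower csn medians of 0.991%, 1.06% and 1.12%. The interval of its control median (1.19 to 1.50) overlapped those of the csn medians (0.845 to 1.23, 0.942 to 1.31 and 1.02 to 1.28). Pooled, its log2 ratios to control were -0.23, 0.12 and -0.01, so on that scale it was not lower in set 1 and was nearly equal in set 2. Per 100 counts on *mt-cyb*, *mt-co1* had medians of 31.7 (27.3 to 35.3) in control and 19.4 (15.05 to 22.2), 22.01 (15.4 to 24.5) and 19.2 (17.05 to 22.95) in the csn sets, whose intervals lie below that of control. The wells overlapped here too: 27.5%, 31.8% and 29.8% of the csn wells with at least 1000 protein-coding counts exceeded the control median of this ratio.

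Per kilobase, so that genes can be set against each other, *mt-co2* and *mt-cyb* led in control with 48229 and 43329 CPM (counts per 1000000 counts on genes) per kb of pooled counts. *mt-co3*, *mt-rnr2* and *mt-co1* followed at 12822, 12016 and 9677 CPM per kb. *mt-atp6* stood at 2689, and the 7 complex I genes and *mt-atp8* lay between 120 and 1050. At the other end *mt-nd4l* had 120 CPM per kb and *mt-rnr1*, the 12S rRNA gene of the small ribosomal subunit (positions 1020 to 1971), had 196.3. The rRNA genes lie on 1 precursor, yet *mt-rnr1* had a pooled 0.924, 0.812, 0.518 and 0.537 counts per 100 counts on *mt-rnr2*. In the median well this ratio was only 0.0147, 0.0113, 0.0135 and 0.0142, since the 17, 15, 14 and 22 highest wells of the sets held 94.9%, 94.5%, 88.3% and 93.4% of the *mt-rnr1* counts. The median *mt-rnr1* share of a well was 0.000275%, 0.000312%, 0.000684% and 0.000707%, so the ratios of the median well rest on few reads.

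By complex, the median well gave complex IV 52.4%, 51.6%, 50.1% and 52.6% of the protein-coding counts and complex III, with *mt-cyb* alone, 43.5%, 42.1%, 42.1% and 43.1%. Complex I, with 7 genes, had 3.56%, 1.95%, 3.07% and 2.38%. Complex V, with *mt-atp6* and *mt-atp8*, had 0.266% in control and 0.0504% in csn 24 h, but 2.28% in set 1 and 1.11% in set 2. In the median well the balance between complexes III and IV thus differed little between the sets. Over pooled counts complex IV had 50.8%, 49.5%, 44.6% and 48.6% and complex III 43.03%, 45.1%, 46.2% and 44.99%. Complex III thus led in set 1, where 1 well held 12.3% of the *mt-cyb* counts. The pooled values without that well were not calculated. The control interval of the complex V median (0.0486% to 1.19%) overlapped that of csn 24 h (0.0177% to 0.515%). It also overlapped that of set 2 (0.616% to 1.67%), whereas set 1 had 1.23% to 2.88%. Over pooled counts complex V had 1.75%, 1.82%, 4.62% and 3.07%.

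**Figure D3:**
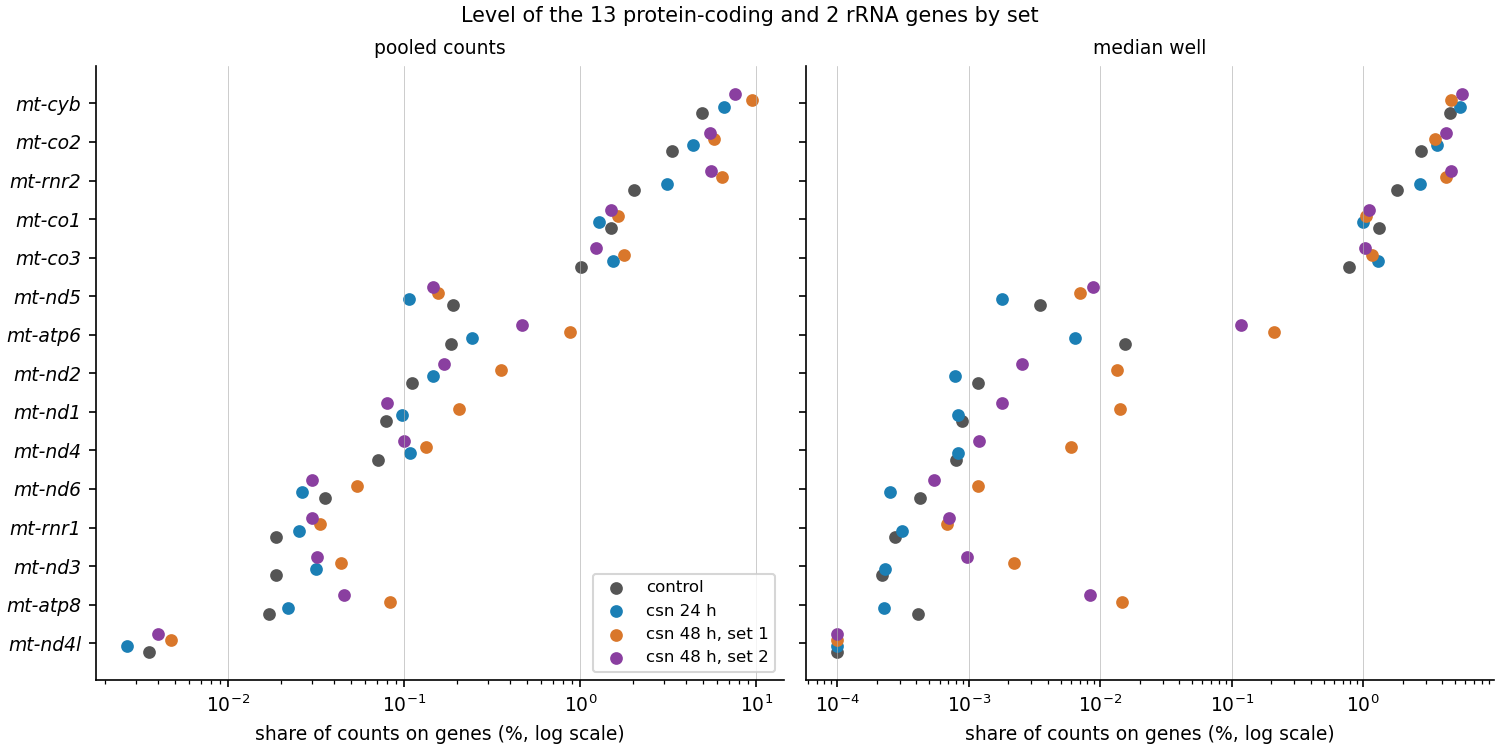
Share of counts on genes (%, log axis) of the 13 protein-coding and 2 rRNA genes, over pooled counts (left) and in the median well (right); colours mark the sets and a median of 0 (*mt-nd4l*) is drawn at 0.0001%. The 5 leading genes differ less between the panels, although *mt-cyb* of set 1 has 9.50% pooled and a median of 4.69%. The medians of *mt-atp6*, *mt-atp8* and the *mt-nd* genes lie far below the pooled shares.

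The remaining genes differed widely between wells. *mt-atp6* (positions 9052 to 9735) encodes the proton channel subunit of the ATP synthase. It took at least 1% of the protein-coding counts in 74 control wells (42.8%, exact interval 35.3 to 50.5) and under 0.1% in 82 (47.4%), which left 17 wells in between. In csn 24 h 54 wells reached 1% (35.3%, 27.7 to 43.4) and 82 (53.6%) stayed under 0.1%. The gene reached 1% in 79 wells of set 1 (61.2%, 52.3 to 69.7) and in 49.5% of the wells of set 2 (42.5 to 56.5), with 41 and 71 wells under 0.1%. These shares are of wells with at least 1000 protein-coding counts. Where it reached 1%, its median was 2.602%, 3.20%, 3.74% and 2.68% of the protein-coding counts, and these wells held 97.4%, 96.9%, 99.6% and 97.6% of all its counts. Over all wells of each set the protein-coding counts had medians of 66461, 65942, 44715 and 58787. Reads can be PCR copies of 1 molecule, and the part of sampling in the wells under 0.1% was not tested. The Spearman correlation of the *mt-atp6* share of protein-coding counts with the counts on genes lay between -0.10 and -0.05 in the 4 sets. In wells with *ins* of at least 1% it was -0.07, -0.03, -0.27 and -0.11. With the spike-in share the values in those wells were -0.08, 0.04, 0.23 and 0.04.

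The complex I genes reached 1% in fewer wells. *mt-nd5* reached 1% in 32.4%, 19.6%, 20.9% and 25.96% of the wells of control, csn 24 h, set 1 and set 2, and 25, 23, 27 and 40 wells lay between 0.1% and 1%. *mt-nd2* did so in 21.4%, 20.3%, 28.7% and 22.1%, *mt-nd1* in 19.1%, 15.03%, 24.8% and 18.75%, and *mt-nd4* in 16.8%, 14.4%, 20.2% and 16.3%, with 16, 18, 28 and 24 wells between the limits for *mt-nd4*. *mt-nd3*, *mt-nd6*, *mt-atp8* and *mt-nd4l* are short genes and reached 1% in at most 17 wells of any set. More wells lay between the limits for *mt-nd3* (67 of set 2, beside 9 at 1% or more) and for *mt-nd6* (39 of control, beside 17). By contrast *mt-cyb* was at 1% or more in 99.4%, 99.3%, 98.4% and 100% of wells. Of these 9 low genes a well held a mean of 1.47, 1.203, 1.73 and 1.45 at 1% or more, and 44, 45, 23 and 48 wells held none. The genes that were high in a well varied: *mt-nd1* and *mt-nd2*, separated only by tRNA genes, had Spearman correlations of 0.13, 0.20, 0.26 and 0.31 over wells, and *mt-atp6* and *mt-nd1* of 0.19, 0.10, 0.46 and 0.19.

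**Figure D4:**
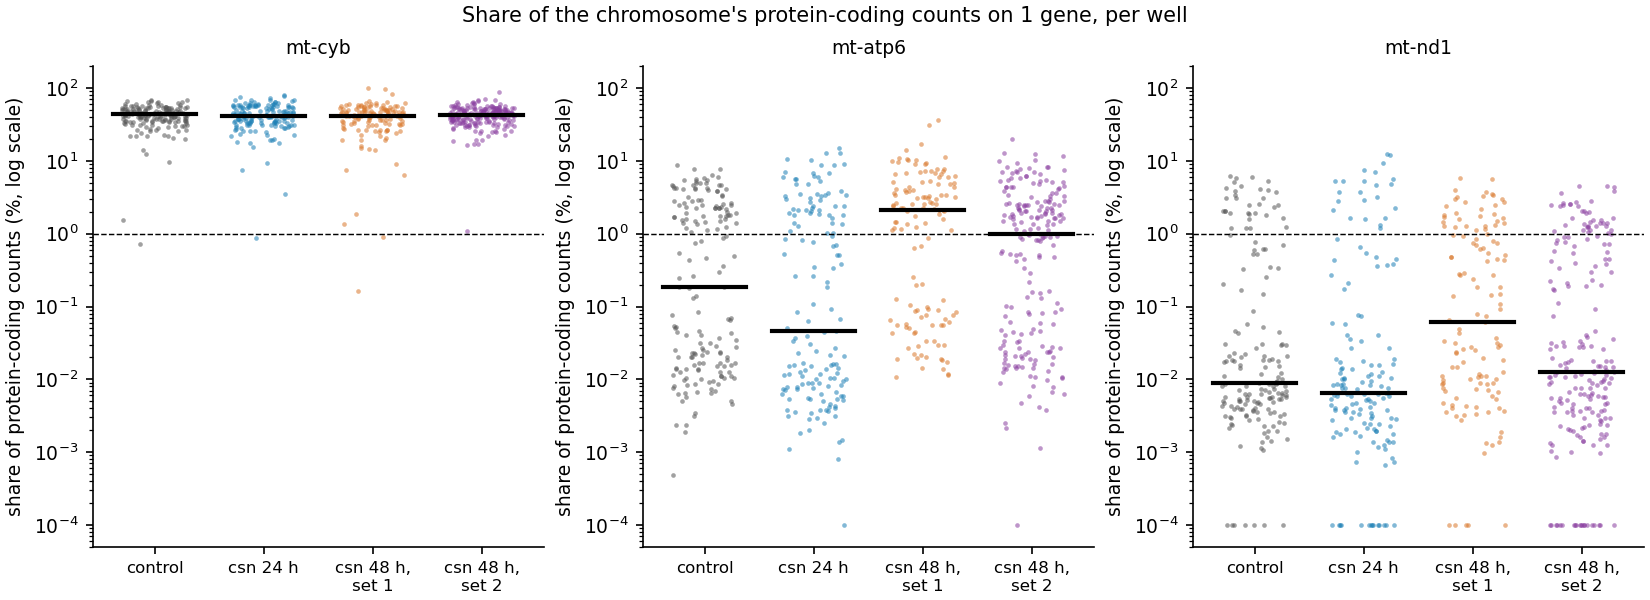
Share of the protein-coding counts of the chromosome (%, log axis) on *mt-cyb*, *mt-atp6* and *mt-nd1* in each well with at least 1000 such counts; black lines are medians, the dashed line marks 1% and wells without a count are drawn at 0.0001%. *mt-cyb* lies near 43% in all sets, and *mt-atp6* falls into an upper and a lower band with 42.8% of control wells at 1% or more.

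Neighbouring genes were compared in pairs by their shares over wells. *mt-atp8* and *mt-atp6*, which overlap by 7 bases on the plus strand and are read from 1 mRNA, had Spearman correlations of 0.85, 0.80, 0.88 and 0.89. There were 7.95, 5.98, 7.97 and 8.68 counts on *mt-atp8* per 100 on *mt-atp6* in the median well. *mt-nd4l* and *mt-nd4* overlap by 7 bases as well, but *mt-nd4l* was detected in only 23.7%, 18.2%, 23.1% and 18.8% of wells and the correlations were 0.27, 0.08, 0.33 and 0.31. *mt-nd6* is the sole protein-coding gene on the minus strand and overlaps the end of *mt-nd5* by 4 bases. In human mitochondria its mRNA lacks a poly(A) tail. Here its median share of a well was 0.000423%, 0.000250%, 0.00118% and 0.000549%, so its ratios in the median well rest on few reads. It had 15.9, 14.04, 20.0 and 11.4 counts per 100 on *mt-nd5* in the median well, with correlations of 0.58, 0.47, 0.52 and 0.57. *mt-atp6* and *mt-co3* overlap by 1 base and had 0.23, 0.16, -0.03 and 0.16, whereas *mt-cyb* and *mt-co2*, which lie apart, had 0.51, 0.35, 0.53 and 0.68. The options of the counting step are not given in the sources used here, so reads over the 10 overlaps may have been dropped or assigned to either gene, and reads of *mt-nd5* and *mt-nd6* may not be told apart by strand.

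The tRNA genes contributed least. Their share of a well had medians of 0.00527%, 0.00412%, 0.00565% and 0.00570% and reached 0.0950%, 0.0990%, 0.130% and 0.679%. *trnS1* (positions 7976 to 8046, minus strand, a serine tRNA) held 18425 of the tRNA counts, or 52.6%, and was detected in 629 of 693 wells. The next genes were *trnG* with 2036 counts in 60 wells, *trnP* with 1984 in 26, *trnM* with 1928 in 73 and *trnE* with 1726 in 21.9% of the 693 wells. No tRNA gene was without counts, but *trnW* had 50 counts in 3 wells and *trnT* had 34 in 2. *trnS1* abuts the end of *mt-co1*, which lies on the other strand, and its share followed that of *mt-co1* with Spearman correlations of 0.64, 0.72, 0.62 and 0.64. There were 0.247, 0.203, 0.337 and 0.318 counts on *trnS1* per 100 on *mt-co1* in the median well. Thinned to 20000 counts, the median well had a count on 1 tRNA gene in each set, with 0, 1, 18 and 16 shallower wells left out.

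Pooled counts were then compared gene by gene, on the log2(CPM + 1) scale, for genes with a count in at least 25% of the wells of either group. The comparisons with control share the control wells. Of the 37 members 16 passed this filter in each comparison: both rRNA genes, the protein-coding genes other than *mt-nd4l*, *trnS1* and *trnE*. In csn 24 h 0 of 16 were past 2-fold, beside 15.3% of all 1120 genes tested that were higher and 21.4% that were lower. The median log2 ratio of the members was 0.39, and that of all genes was 0.07. The lowest members were *trnE* at -0.83 and *mt-nd5* at -0.82, and the highest was *mt-nd3* at 0.76. *trnE* passed the filter through control alone, where it was detected in 27.2% of wells beside 14.9% in csn 24 h. In set 1 7 of 16 members were higher by at least 2-fold, against 23.8% of all 1415 genes, and 0 were lower, against 22.7%. In set 2 3 of 16 were higher, against 16.7% of 1212 genes, and 0 were lower, against 19.2%. The members' median log2 ratios were 0.92 and 0.55 in sets 1 and 2, and those of all genes 0.03 and -0.01.

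*mt-rnr2*, *mt-atp6* and *mt-atp8* were past 2-fold in both 48 h sets. Pooled, *mt-rnr2* took 2.02% of the counts in control, 3.10% in csn 24 h, 6.43% in set 1 and 5.54% in set 2, with log2 ratios to control of 0.62, 1.67 and 1.45. *mt-atp6* took 0.184%, 0.242%, 0.868% and 0.468%, with log2 ratios of 0.40, 2.24 and 1.35. *mt-atp8* had ratios of 0.36, 2.28 and 1.43. In set 1 *mt-nd2*, *mt-nd1*, *mt-nd3* and *trnS1* also passed, at 1.69, 1.38, 1.22 and 1.11. Some of these rest on few wells. Without the well that held most of its counts, 25.6% of those in set 1, *trnS1* fell below 2-fold at 0.72. The methods state limits of 200 genes detected and 40% mitochondrial counts per well. Among wells within them (the 13 genes counted), *mt-nd1*, *mt-nd2* and *trnS1* stood at 0.47, 0.63 and 0.28 in set 1, and *mt-atp6* and *mt-atp8* at 0.69 and 0.73 in set 2. *mt-rnr2* stayed past 2-fold there, at 1.31 in both sets. In wells with *ins* of at least 1%, *mt-atp6* stood at 1.69 in set 1 and 0.51 in set 2, whereas *mt-rnr2* stood at 1.57 and 1.38.

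The 48 h sets shared plate 3, with set 1 in rows A to F and set 2 almost wholly in rows G to P. Set and plate row thus cannot be told apart there. Between these sets 3 of 16 members were higher in set 1 by at least 2-fold (19.4% of 1399 genes tested) and 0 were lower (16.8%). They were *mt-nd1*, *mt-nd2* and *trnE*, at 1.35, 1.08 and 1.17. *trnE* passed the filter through set 1 alone, where it was detected in 27.3% of wells beside 19.3% in set 2, and of the 15 members that passed in both sets 2 were past 2-fold. Without the well with most counts *mt-nd2* and *trnE* stood at 0.77 and 0.90. Within the limits of the methods *mt-nd1*, *mt-nd2* and *trnE* stood at 0.61, 0.89 and 0.62, and as a mean of wells *mt-nd1* was at 0.88, all under 2-fold. *mt-rnr2* differed by 0.21.

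The highest wells were not alike. More than 40% of the counts lay on the 13 protein-coding genes in 2 control wells (1.16%, exact interval 0.140 to 4.11), 4 csn 24 h wells (2.597%, 0.712 to 6.52), 17 wells of set 1 (11.9%, 7.08 to 18.4) and 20 wells of set 2 (8.97%, 5.56 to 13.5). With all 37 genes the counts of wells were 5, 4, 24 and 27. In the wells over 40% by the 13 genes, *mt-rnr2* had medians of 8.76, 7.24, 16.9 and 25.5 per 100 protein-coding counts, below those of all wells of the same sets. These wells were chosen by the count that is the denominator here, so a lower ratio follows in part from the choice. In 4 wells of set 1 and 3 of set 2 the rRNA genes alone had more than 40% of the counts. In the 3 highest of these in set 1, with 14393 to 28276 counts on genes, *mt-rnr2* took 85.1%, 58.8% and 57.9% of the counts and the protein-coding genes 1.91%, 1.13% and 16.1%. Spike-ins were 50.3%, 61.2% and 30.7% of everything counted in them. The 3 wells of set 2, with *mt-rnr2* at 76.7%, 63.7% and 42.8%, had 28281, 18517 and 161042 counts on genes, and spike-ins were 59.8%, 0.0755% and 3.03%.

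The link to *ins* was weak for the protein-coding genes and differed by member. Over wells, the Spearman correlation of the protein-coding share with the *ins* share of counts outside the chromosome was -0.09 in control, 0.04 in csn 24 h, -0.17 in set 1 and -0.16 in set 2. In control wells with 1 to 5% *ins* the median protein-coding share was 14.2% (quartiles 12.7 and 14.9), with 5 to 15% it was 10.0% (quartiles 7.49 and 12.2), and with over 15% it was 10.6%. The corresponding medians were 14.7%, 12.7% and 13.4% in csn 24 h, 11.8%, 12.3% and 10.8% in set 1, and 12.4%, 13.5% and 12.4% in set 2. The 15 wells of set 1 with 1 to 5% *ins* had quartiles of 5.30 and 68.9%, and 6 of them had under 50000 counts on genes. Wells with a protein-coding share over 40% numbered 0 in each set above 15% *ins*. With 5 to 15% *ins* they numbered 1, 2, 6 and 6, with 1 to 5% 0, 0, 6 and 3, and under 1% 1, 2, 5 and 11. Wells under 1% *ins* had medians of 21.1% (9 wells), 9.08% (16), 14.1% (49) and 28.02% (29), with ranges that spanned most of the scale. In these wells *ins* had a median of 407, 257, 300 and 224 reads, and since both shares contain the counts outside the chromosome, they are not independent: in the 29 wells of set 2 the correlation was 0.60, and with *ins* as a share of all counts it was -0.01.

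**Figure D5:**
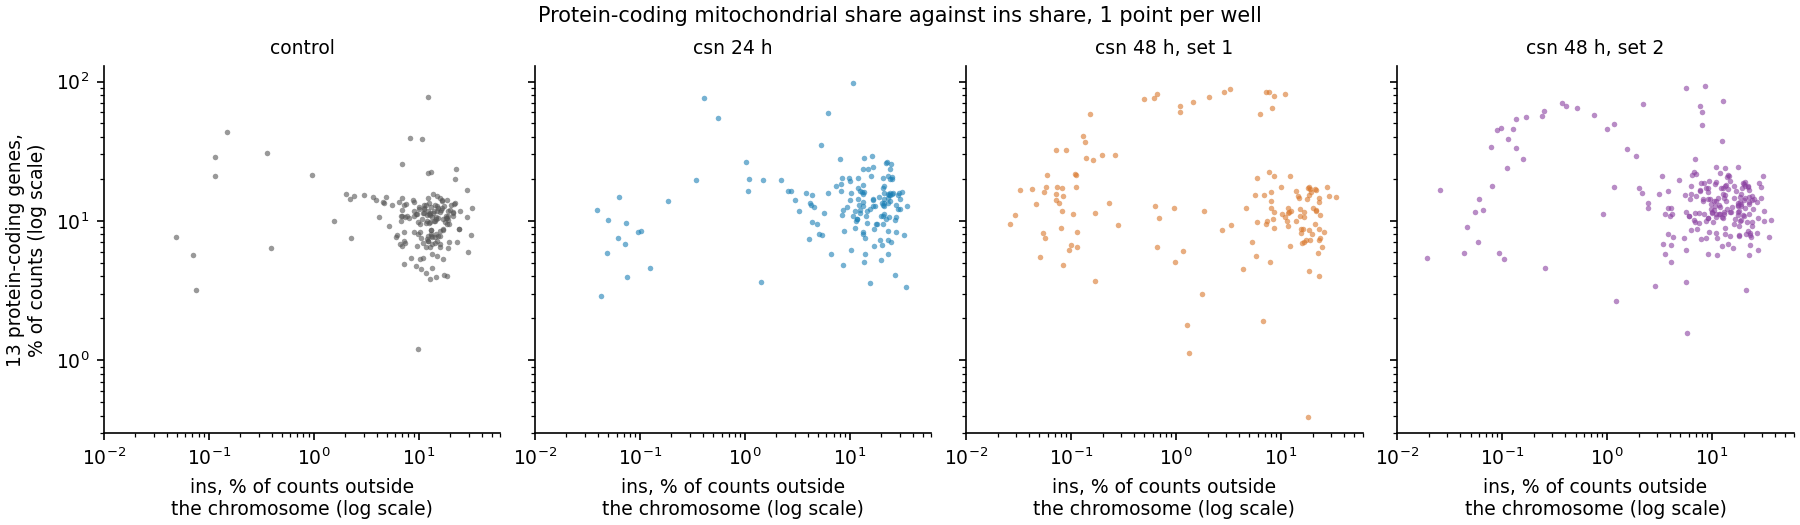
Protein-coding share of the chromosome (% of counts on genes, log axis) against the *ins* share (% of counts outside the chromosome, log axis), 1 point per well and 1 panel per set. Most wells form a cloud above 1% *ins* without slope, and 9, 16, 49 and 29 wells lie below 1%. No well above 15% *ins* has a protein-coding share over 40%.

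The ratio of *mt-rnr2* to the mRNAs, over all wells of each set, had weak positive correlations with *ins*. Its counts per protein-coding count correlated with the *ins* share at 0.14, 0.25, 0.23 and 0.30, and in wells with at least 1% *ins* at 0.12, 0.24, 0.17 and 0.22. Per 100 protein-coding counts the medians in wells with 1 to 5% *ins* and in wells over 15% were 16.8 and 19.5 in control, 14.04 and 25.5 in csn 24 h, 28.5 and 43.8 in set 1, and 25.6 and 38.7 in set 2. The *mt-atp6* share of protein-coding counts correlated with the *ins* share at 0.08 in control, -0.05 in csn 24 h, -0.47 in set 1 and -0.10 in set 2. On the logit scale the Pearson value of set 2 was -0.26. *mt-atp6* reached 1% in 40 of 49 wells of set 1 with *ins* under 1% and in 17 of 40 wells over 15%. In set 2 it did so in 24 of 29 wells under 1% and in 35 of 69 over 15%. The corresponding wells were 4 of 9 and 27 of 53 in control, and 7 of 16 and 25 of 67 in csn 24 h. With 1 to 5% and 5 to 15% *ins* the wells were 11 of 15 and 25 of 39 in set 1. In set 2 they were 9 of 27 and 47 of 98, both lower shares than over 15%. Among wells with at least 1% *ins* the Spearman correlations were 0.08, 0.0005, -0.42 and 0.10.

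Wells with markers of other cells were set beside those with *ins* of at least 1%. In the 17 wells of set 1 and the 6 wells of set 2 with iridophore markers, *mt-atp6* reached 1% of the protein-coding counts in all 17 and all 6, from 2.13% to 10.6% and from 5.35% to 12.7%. It did so in 42.7%, 34.8%, 55.9% and 46.9% of the other wells with *ins* of at least 1%, in control, csn 24 h, set 1 and set 2. These shares had no minimum of protein-coding counts. Among all wells with *ins* of at least 1% and at least 1000 protein-coding counts they were 42.7%, 34.3%, 48.8% and 44.1%. Acinar and macrophage markers did not define a kind of well. Their highest values over all wells were 34154 and 24956 CPM in set 1 and 7342 and 619 CPM in set 2. The remaining wells had *ins* under 1%, and neither iridophore markers nor glucagon and somatostatin genes above *ins*. Among them *mt-atp6* reached 1% in 21 of 26 in set 1 and 14 of 15 in set 2. In wells with glucagon or somatostatin genes above *ins* it did so in 2 of 3, 4 of 10, 3 of 7 and 4 of 8. The protein-coding share of the iridophore marker wells had medians of 16.9% (5.55% to 40.7%) and 36.1% (17.9% to 56.6%), beside 11.6% and 12.8% in the *ins* wells of the same sets and 13.8% and 46.6% in the remaining wells. Wells with glucagon or somatostatin genes above *ins* had lower medians in each set, of 5.68% (3 wells, 3.19% to 7.65%), 7.94% (10 wells, 2.91% to 12.0%), 6.20% (7 wells, 3.70% to 12.9%) and 7.47% (8 wells, 4.58% to 14.4%). The corresponding *ins* wells had 10.6%, 13.4%, 11.6% and 12.8%, with ranges that overlapped these. *mt-rnr2* per 100 protein-coding counts was 27.8 and 26.9 in the glucagon or somatostatin wells of sets 1 and 2 and 18.5 and 17.1 in those of control and csn 24 h. The part of these wells in the differences between sets was not tested beyond the values given for wells with *ins* of at least 1%.

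Genes of the nucleus that act on mitochondrial RNA and its products were compared on the same pooled scale. The 96 nuclear subunits of complexes I to V took a median of 1.94%, 2.59%, 2.21% and 2.43% of the counts outside the chromosome, and over wells their share correlated with the protein-coding counts of the chromosome at 0.02, 0.01, -0.10 and 0.01. Of the 22, 25 and 23 complex I subunits tested in csn 24 h, set 1 and set 2, 4, 4 and 3 were higher and 1, 5 and 0 lower by at least 2-fold. The shares over all genes tested, given above (15.3%, 23.8% and 16.7% higher, 21.4%, 22.7% and 19.2% lower), are the background for this list and for those that follow, and a count near them is no result about a list. Among the complex I subunits *ndufa6* had 135.95 CPM in control and 534 and 382 CPM in sets 1 and 2, and *ndufa8* had 102.6 CPM in control and 16.8 CPM in set 1. *ndufa1*, *ndufb7* and *ndufc2* stood at log2 ratios of 1.96, 1.78 and 1.31 in csn 24 h, *ndufc2* at 1.49 in set 1, and *ndufb3* and *ndufb7* at 1.88 and 1.24 in set 2. Of the 4 complex II subunits tested 0, 2 and 1 were lower and 0 higher, with *sdhb*, an iron-sulfur subunit, at -1.97 and -1.88 in sets 1 and 2. Of 4, 5 and 6 complex III subunits 0, 0 and 3 were higher and 1, 1 and 1 lower. The lower one was *uqcrc1*, a core subunit, with 237 CPM in control and 83.7, 6.85 and 90.3 CPM in the csn sets, while *uqcrh* and *uqcrb* were at 1.30 and 1.09 in set 2. The complex IV subunits had 3 of 11, 0 of 12 and 0 of 10 higher and none lower, among them *cox6c* and *cox7a2* at 1.47 and 1.15 in csn 24 h. The complex V subunits had 2, 5 and 2 of 19 higher and 0, 1 and 0 lower, with *atp5f1d* at 1.04 in csn 24 h and 2.13 in set 1, and *atp5mj* at 1.50 and 1.42 in sets 1 and 2. Median log2 ratios of the lists of complexes I and V lay between 0.23 and 0.48. They were -0.41, -0.67 and -0.27 for complex II in csn 24 h, set 1 and set 2. Complex III had 0.26, 0.11 and 1.00, and complex IV 0.37, 0.29 and 0.25. Some of the genes called higher rest on few wells. In set 1 1 well held 48.3% of the *ndufc2* counts, and in set 2 1 well held 49.2% of *ndufb3* and 1 well 46.9% of *atp5mj*. Their ratios without that well were not calculated. Some calls came from genes that passed the filter only through the group where they were higher, so their direction follows in part from the filter. Among them were *uqcrc1* in csn 24 h and *sdhb* in set 2, through control alone. *ndufb3* and *uqcrb* in set 2 passed through the csn wells alone, as did 2 of the 3 complex III subunits called higher there.

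The proteins of the mitochondrial ribosome, which binds the 16S and 12S rRNAs, were sparsely detected: 3, 10 and 6 of 76 genes passed the filter. In csn 24 h 1 was higher (*mrpl41*, 1.71) and 1 lower (*mrps25*, -1.46). Each of them passed the filter only through the group where it was higher, so these calls say nothing of the list either. In set 1 6 of 10 and in set 2 4 of 6 were higher, and 0 were lower. Most of these passed the filter through the csn wells alone, 5 of the 6 in set 1 and 4 of the 4 in set 2, so these counts say nothing of the list. Among the genes that passed in both groups 1 of 2 and 0 of 1 were higher. *mrpl27* had 17.2 CPM in control and 94.5 and 192.4 CPM in sets 1 and 2, in 20, 48 and 74 wells. *mrps30* had 28.5, 123.8 and 164.3 CPM, and both genes passed the filter through the csn wells alone. The mitochondrial chaperonin gene *hspd1* had 266 CPM in control and 81.35, 37.7 and 39.2 CPM in csn 24 h, set 1 and set 2. In the comparison of set 2 it passed the filter through control alone. Its partner *hspe1* had a log2 ratio of -1.12 in set 1. Of 19 genes of mitochondrial RNA processing and stability 2 passed the filter and 0 were past 2-fold in any csn set. No gene of the lists of mitochondrial DNA transcription and replication (14), translation factors (11) and biogenesis regulators (6) passed the filter. Of 2 mitophagy genes tested, 0, 1 and 1 were lower, *fundc1* at -1.26 in set 1 and *sqstm1* at -1.32 in set 2. These nuclear genes are sparse, and 1 well held 83.4% of the *uqcrc1* counts and 76.2% of the *sdhb* counts of set 1.

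None of the genes examined outside the chromosome followed the protein-coding counts closely in control wells. Among 400 genes with a count in at least 50% of control wells, the highest Spearman correlations with the protein-coding counts per count outside the chromosome were 0.25 (*zgc:101731*), 0.24 (*cd28*), 0.21 (*cox7b*, a complex IV subunit), 0.19 (*si:dkey-33c12.4*) and 0.17 (*junb*). The lowest were -0.24 (*hspa5*, the chaperone of the endoplasmic reticulum), -0.24 (*bag3*), -0.23 (*rps27.1*), -0.21 (*rps7*) and -0.20 (*alcamb*). The median over the 400 genes was -0.01. In csn 24 h, set 1 and set 2 *hspa5* had 0.09, 0.06 and 0.06, and *cd28* had 0.11, 0.22 and 0.11.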

How the data were processed

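The authors deposited raw counts of reads per gene and well, made by demultiplexing with bcl2fastq (2.19.1), trimming, alignment to GRCz11 with GSNAP and counting with featureCounts (2.0.1) on Ensembl release 95; the counting options are not given in the sources used here. Spike-in counts were kept out of all totals except where named. All 37 members matched a RefSeq entry of the zebrafish mitochondrial genome (assembly GRCz12tu) in start, end and length, from which tRNA and rRNA names were taken; symbols are in lower case. Coordinates are those of the deposited table.

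Control, csn 24 h, set 1 and set 2 held 173, 154, 143 and 223 wells. Shares carry exact Clopper-Pearson intervals and medians over wells carry order-statistic binomial intervals. Ratios within the chromosome used wells with at least 1000 protein-coding counts. Pooled CPM received 1 CPM before log2. Named genes were all protein-coding and rRNA members, the 5 leading tRNA genes, *ins*, up to 3 genes per nuclear list with the largest ratio past 2-fold, and the 5 genes most and least like the protein-coding share; the text singles out further members after their values were seen. Members and lists were chosen with earlier results of these data known. The wells labelled NC (1) and RNA (3) have no condition and entered no comparison. No doublet caller was run. Correlations are descriptions over wells of 1 plate. The fold calculation and the thinning were tested on simulated data. Alternatives covered totals, limits on wells, pooling, pseudocount and filter; those for *mt-rnr2* and *mt-atp6*, leaving out single wells, and the filter in both groups were chosen after seeing the data. Tools were Python 3.11.15 with scipy 1.17.1, numpy 2.4.6 and pandas 2.3.3, and figures were drawn with matplotlib 3.10.9.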

Additional observations from a re-analysis of the deposited data

Results flagged for a closer look

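The wells that the labels put in no condition also held mitochondrial counts, above the limit that a count of 0 would allow. The well labelled NC on plate 1 had 3617 counts on genes, of which 11.1% lay on the 13 protein-coding genes (403 counts, where 3 counts would be 0.0829%) and 4.92% on *mt-rnr2*, and *ins* was 10.4% of its counts outside the chromosome. The wells labelled RNA on plates 1, 2 and 3 had 2.44%, 3.24% and 3.08% of 60608, 45492 and 48071 counts on the protein-coding genes. *mt-rnr2* took 2.099%, 2.396% and 3.51% of their counts, in the order of the plates.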

How the results depend on the processing

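Counting all 37 genes in place of 13 changed the median shares to 12.5%, 16.3%, 17.2% and 18.3% in control, csn 24 h, set 1 and set 2, and pooling the wells gave 11.5%, 14.5%, 20.6% and 16.8%. Pooled, the log2 ratios of the protein-coding share to control were 0.84 in set 1 and 0.54 in set 2, and that of *mt-rnr2* in set 1 was 1.67. Per spike-in count the protein-coding ratios of csn 24 h and set 1 and the *mt-rnr2* ratio of csn 24 h changed sign, to -0.26, -0.24 and -0.12, and that of *mt-rnr2* in set 1 was 0.74. The cause was not tested. With *ins* as a share of all counts its correlation with the protein-coding share was -0.0688 in csn 24 h and -0.32 in set 1, and within the limits of the methods it was 8.61e-06 in set 2. The number of members past 2-fold was 1 in csn 24 h with 0.1 CPM added or with the mean of wells, and 12 in set 1 with counts outside the chromosome as the total. Without the filter it was 5, 11 and 6 in csn 24 h, set 1 and set 2, and within the limits of the methods 4 and 1 in sets 1 and 2. Wells with at least 2% of protein-coding counts on *mt-atp6* made up 29.5%, 26.1%, 51.9% and 34.6%, those with at least 0.5% were 59.13% in set 2, and with *ins* of at least 1% the share at 1% or more was 48.8% in set 1. Without thinning the median well had counts on 2 tRNA genes in each set. The other 73 values stayed within the interval of the median or share, within 1.5 times for counts or within 0.1 for correlations. Shares of the shallowest wells rest on few reads: 1, 14 and 15 csn wells had under 1000 protein-coding counts. No paired analysis was possible because each set is 1 sample, on 1 plate.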
